A study of Mus musculus with 24 samples.

Results

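The genes of 10 adaptors and regulators that act below CD40 and related receptors in B cells were followed through a series of 24 RNA-seq libraries. They are Traf1, Traf2, Traf3, Traf4, Traf5, Tank, Birc2, Birc3, Map3k14 and Tnfaip3, chosen by symbol, and all 10 were found once each among the 27179 genes of the count tables. All 10 passed the filter on low counts in each of the 3 stages, so none was lost before testing.

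CD40 has no enzyme activity of its own. When it binds its ligand it gathers TRAF proteins, which pass the signal on to the kinases of the NF-κB and MAP kinase pathways. In a resting B cell TRAF2, TRAF3 and the ubiquitin ligases cIAP1 and cIAP2 (encoded by Birc2 and Birc3) keep the kinase NIK (encoded by Map3k14) low, and CD40 lifts this brake, which opens the noncanonical NF-κB pathway. A20 (encoded by Tnfaip3) and TANK damp the canonical pathway, and TRAF1 and A20 are themselves induced by NF-κB.

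The mice were C57BL/6, 6 to 20 weeks old, and the cells were B cells of lymph nodes, sorted as CD3- B220+ CD138-. Control mice were Cd23T/+, mice without PU.1 in B cells (PU.1 cKO) were Spi1fl/fl Cd23T/+, mice without SpiB (SpiB KO) were Spi1fl/fl Cd23+/+ Spib-/-, and mice with both losses, PU.1 SpiB DKO, were Spi1fl/fl Cd23T/+ Spib-/-. Cd23T is a Cd23-Cre transgene, active from the transitional B cell stage, which the SpiB KO mice lacked. Cells were naive or had been cultured for 48 h with CD40L (50 ng/ml) + IL-4 (10 ng/ml) or with LPS (20 ug/ml) + IL-4, and each genotype at each stage had 2 libraries, stated by the study to be biological replicates. The labels give all libraries 1 extraction protocol, that of the CD40L + IL-4 culture, so the stage was taken from the title and source.

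Counts on genes totalled 14.2 to 18.2 M per naive library, 9.6 to 61.6 M after CD40L + IL-4 and 22.8 to 73.7 M after LPS + IL-4. Levels are CPM (counts scaled to the size of a library), normalized by edgeR's TMM method within a stage unless stated. Differential expression (DE) was called where edgeR's quasi-likelihood test gave an adjusted p under 0.15, the fold exceeded 1.5 and the deposited log2 RPKM averaged above 0 in the stage. Fold changes on the log2 scale carry their standard error (SE) in brackets where it is given. An exact permutation test of 2 libraries against 2 cannot go below p = 0.333. Comparisons with control in a stage share the same 2 control libraries. Spi1, which encodes PU.1, was at 154.9 and 173.7 CPM in naive control. It was at 53.2 and 59.5 CPM in PU.1 cKO but at 102.6 and 110.1 CPM (PU.1 SpiB DKO), so its transcript was less reduced in naive PU.1 SpiB DKO, in which the study describes the floxed exon as in part retained. After LPS + IL-4 Spi1 was at 58.8 to 63.9 CPM in PU.1 SpiB DKO, which overlapped control (60.7 to 72 CPM) and lay above PU.1 cKO (41.2 to 44.2 CPM). After CD40L + IL-4 it was at 25.6 to 32.5 CPM in PU.1 SpiB DKO, below both. The study reports the floxed exon as fully excised after CD40L + IL-4, and its deletion as similarly efficient after LPS + IL-4. Reads outside the deleted exon are counted too, so these levels check the labels only in part, and PU.1 SpiB DKO below stands for the libraries so labelled. Spib was at 80.2 to 100.3 CPM in naive SpiB KO and PU.1 SpiB DKO, against 1354 and 1472 CPM (control). The B cell marker Cd79a was at 439 CPM or more in every library. The 7 B cell markers, summed, were lower in PU.1 SpiB DKO than in control in naive cells (21970 to 23360 against 32330 to 37010 CPM), where 2 of 7 were DE and lower. They were also lower after CD40L + IL-4 (12030 to 13860 against 20150 to 26450 CPM), where 4 of 7 were DE and lower. After LPS + IL-4 the sums overlapped (9230 to 9742 against 9700 to 11570 CPM). There 2 of 7 were DE and higher and 0 lower, with log2 fold changes of 0.66 for Cd22 and 0.66 for Cd79a. Cd3e was at 0.682 CPM or less. Plasmacytoid dendritic cell markers (6 genes, summed) were at 225 to 344 CPM in naive control, 1621 to 2054 CPM (SpiB KO) and 2186 to 2468 CPM (PU.1 SpiB DKO), and T cell markers (7 genes, summed) at 68.5 to 109.8, 375.6 to 454.1 and 560.6 to 568.3 CPM. Cd3d, Cd3e and Cd3g were at 1.24 CPM or less in naive cells, so Cd8a, Cd8b1, Cd4 and Lck made up nearly all of the T cell sum. The part of these lists in the results was not tested, and in these bulk samples fewer cells of a type and less RNA per cell cannot be told apart.

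In control B cells, Traf1 and Tnfaip3 rose and Traf5 fell in both cultures, while the other members moved less. Of the 10 members, 3 were DE between CD40L + IL-4 and naive cells, where 35.1% of all genes tested were. Between LPS + IL-4 and naive cells 4 were DE (47.5% of all genes), and between the cultures 3 (31.2%). These shares are near the background, and voom called 4, 5 and 4 members and DESeq2 3, 4 and 4 in the same order. The CD40L + IL-4 counts were deposited in a table of their own, and the labels name no sequencing batch. Stage and any batch that went with it therefore cannot be told apart.

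On a scale shared by all 24 libraries, Traf1 was at 23.4 and 33.7 CPM in the naive control libraries, 72.3 and 92.7 CPM after CD40L + IL-4 and 249.5 and 295.1 CPM after LPS + IL-4. These ranges did not overlap. The log2 fold change was 1.53 (SE 0.16, edgeR adjusted p = 1.78e-07) after CD40L + IL-4 and 3.25 (SE 0.17, edgeR adjusted p = 4.31e-12), or 9.54-fold, after LPS + IL-4. Tnfaip3 was at 62.1 and 60.4 CPM in naive cells, 125.9 and 125.1 CPM after CD40L + IL-4 and 216.5 and 186.5 CPM after LPS + IL-4, rises of 1.03 (edgeR adjusted p = 1.04e-05) and 1.72 (edgeR adjusted p = 6.45e-09) on the log2 scale. Traf5 ran the other way. It fell from 110.5 and 133.7 CPM in naive cells to 45.6 and 46.2 CPM after CD40L + IL-4 and to 30.7 and 27.4 CPM after LPS + IL-4, a difference of -2.07 (SE 0.14, edgeR adjusted p = 2.39e-10) between LPS + IL-4 and naive cells. By edgeR, Birc2 was DE between LPS + IL-4 and naive cells (-0.61, edgeR adjusted p = 0.000455). It lay just past the fold threshold of 0.58 on the log2 scale. The call was lost under 4 of 13 alternatives, among them without naive control replicate 1 (-0.55) or LPS + IL-4 control replicate 2 (-0.53). The rise of Tnfaip3 from CD40L + IL-4 to LPS + IL-4 (0.68) was not DE without LPS + IL-4 control replicate 1 (0.55). It was not DE with voom either (0.53). Between the cultures edgeR did not call Birc2, whereas DESeq2 (-0.62) and voom (-0.68) did, as did edgeR with RLE size factors (-0.62) or on the 6 control libraries (-0.61). Tank passed the p but not the fold in both cultures against naive cells (-0.58 and -0.52), and voom called it in both (-0.62 and -0.66). Traf2, Traf3, Traf4, Birc3 and Map3k14 were not DE between any pair of stages by edgeR, and voom called Map3k14 between the cultures (-0.60).

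**Figure D1:**
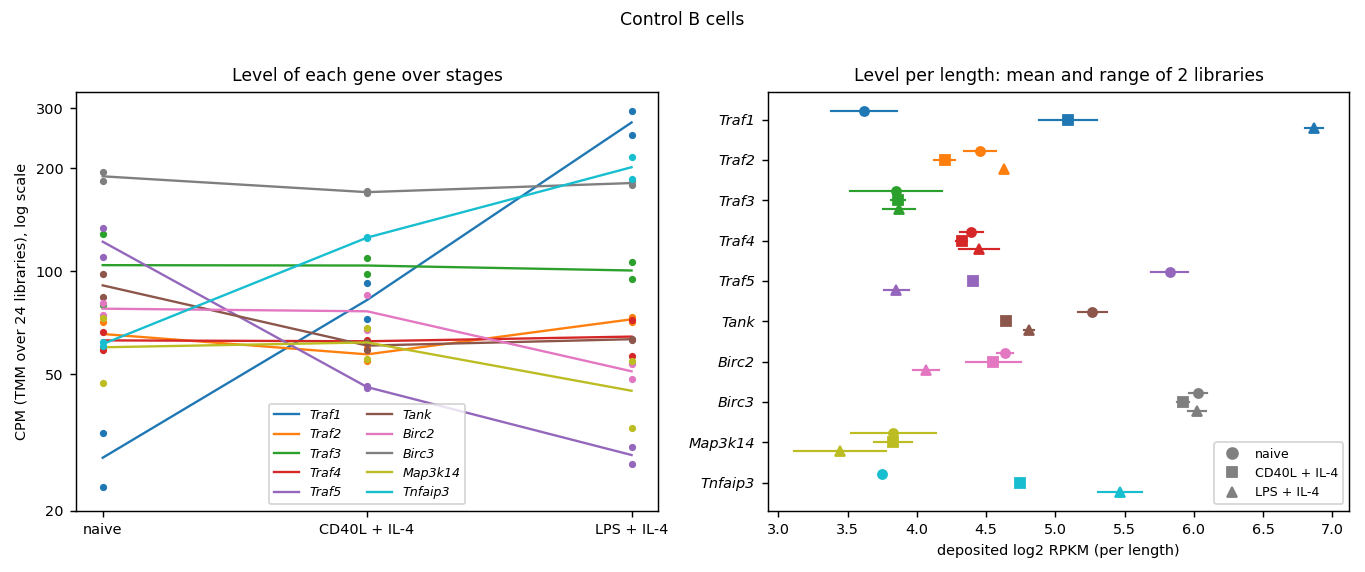
Left, CPM on a log axis of each member in the 2 control libraries of each stage (points) with lines through the means; right, deposited log2 RPKM (per length) as the mean (symbol) and the range of 2 libraries (line). Traf1 climbs from the lowest level per length in naive cells to the highest after LPS + IL-4, and Traf5 falls.

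Per unit of length the order of the members changed with stage. In naive control cells Birc3 led at a log2 RPKM of 6.03 ± 0.09 (SD, n = 2), followed by Traf5 at 5.83, Tank at 5.27 and Birc2 at 4.64. Traf2 (4.46) and Traf4 (4.39) overlapped, as did each neighbouring pair of Traf3 (3.85), Map3k14 (3.83), Tnfaip3 (3.75) and Traf1 (3.62). After CD40L + IL-4 the order began with Birc3 (5.92), Traf1 (5.09) and Tnfaip3 (4.75), and Map3k14 (3.83) was last. After LPS + IL-4 Traf1 led at 6.87, above Birc3 (6.02) and Tnfaip3 (5.47), with no overlap among these. Map3k14 (3.45) was again last, and its range overlapped those of its neighbour Traf5 (3.85). The LPS + IL-4 RPKM values were normalized apart from the others, so levels were ordered only within a stage.

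Against control, members that were DE were mostly lower. Over the 9 comparisons of a genotype with control there were 90 pairs of member and comparison, of which 14 were DE. Of these, 12 were lower than control and 2 higher, while of all pairs of gene and comparison 4.04% were DE and lower and 4.23% DE and higher. In naive cells 4 of 10 members were DE in PU.1 cKO, where 8.4% of all genes tested were DE. In naive SpiB KO it was 1 member (6.35% of all genes) and in naive PU.1 SpiB DKO 3 (14.1%). After CD40L + IL-4 PU.1 cKO had 2 (9.36%), SpiB KO 0 (0.11%) and PU.1 SpiB DKO 1 (13.7%). After LPS + IL-4 PU.1 cKO had 1 (6.67%), SpiB KO 0 (2.29%) and PU.1 SpiB DKO 2 (13.6%). The members were chosen with earlier results of these data known, so these counts describe them and test no excess over the shares. The naive count of PU.1 cKO stood farthest above what its background share gives for 10 genes, but it was 2 without naive PU.1 cKO replicate 2, while that of naive PU.1 SpiB DKO was 5 without naive control replicate 1 and 1 without PU.1 SpiB DKO replicate 1. For the 0 after CD40L + IL-4 in SpiB KO, edgeR gave 0 members at an unadjusted p under 0.05, and DESeq2 and voom called 0. For the 0 after LPS + IL-4 in SpiB KO, edgeR gave 2 (Traf1 and Traf4) at an unadjusted p under 0.05, and DESeq2 and voom called 0. The median log2 fold change of the members in naive cells was -0.35 (PU.1 cKO), -0.22 (SpiB KO) and -0.46 (PU.1 SpiB DKO), while that of all genes was between -0.013 and 0.013. In PU.1 SpiB DKO it was -0.24 after CD40L + IL-4 and -0.17 after LPS + IL-4.

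**Figure D2:**
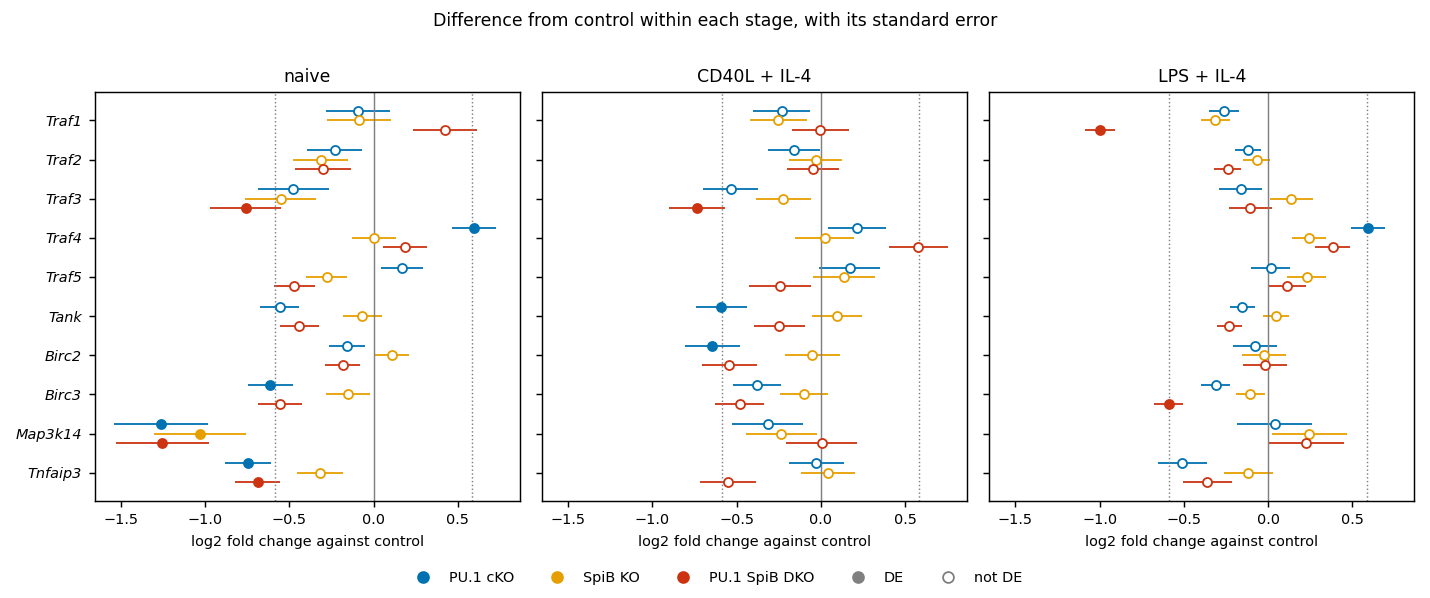
Log2 fold change of each member against control (horizontal axis) with its standard error (lines), by genotype and stage. Filled points are DE, dotted lines mark a fold of 1.5, and Map3k14 in naive cells and Traf1 after LPS + IL-4 lie farthest from 0.

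**Figure D3:**
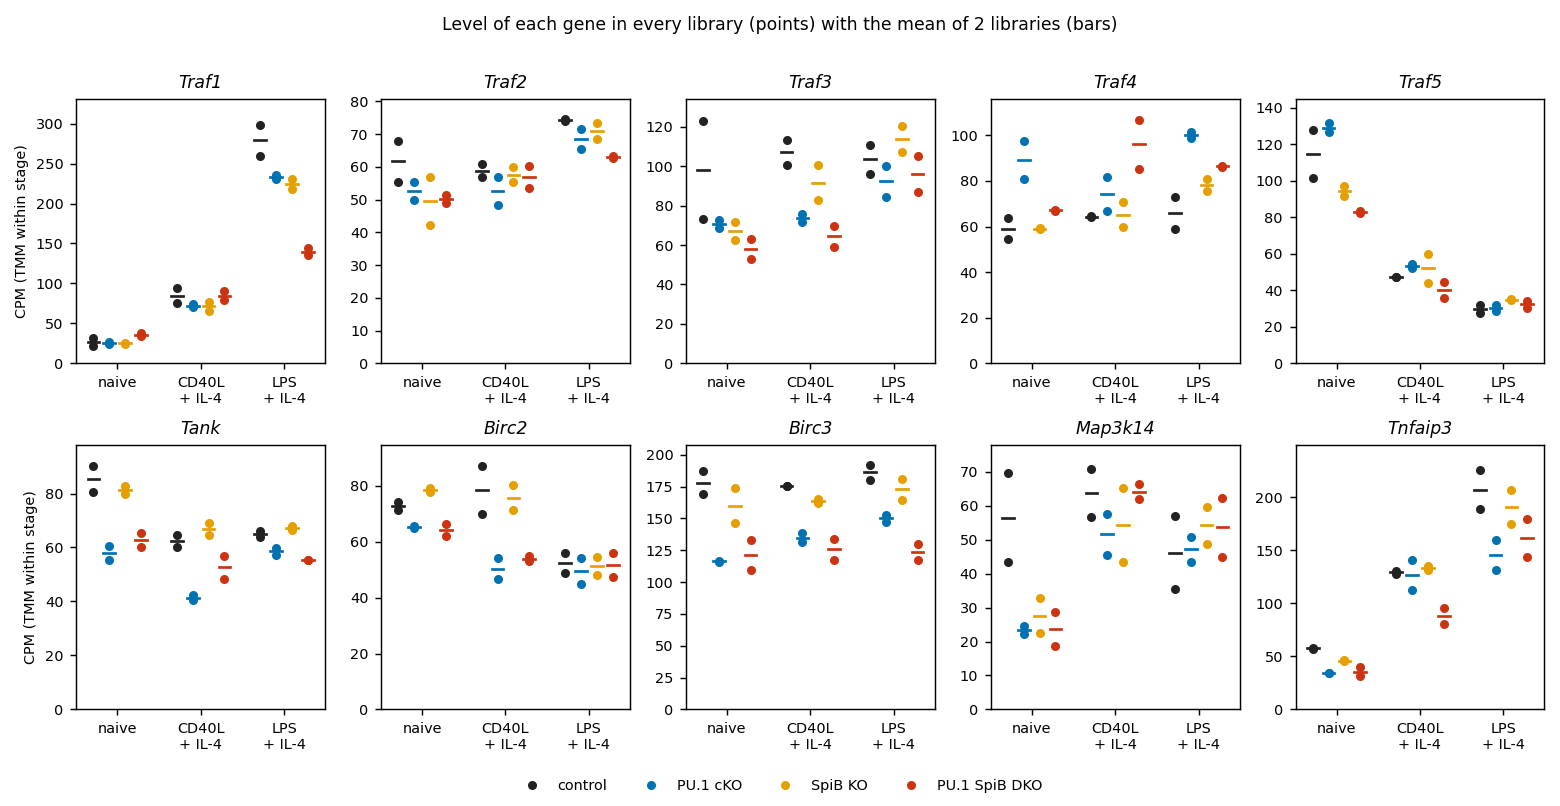
CPM of each member in every library (points) by stage and genotype, with the mean of 2 libraries (bars). Traf1 in the PU.1 SpiB DKO libraries cultured with LPS + IL-4 (135.6 and 144.2 CPM) lies below all 6 other libraries of that culture.

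Traf1 encodes an adaptor without a RING domain that joins TRAF2 and the cIAPs in signalling complexes. It is listed by Entrez ID 22029 and lies at chr2:34941750-34961812 of GRCm38.p6, 56.1 Mb from Spi1. Its RefSeq promoter window, from 250 bases before to 50 after the start of the transcript, is at chr2:34961723-34962022 on the minus strand. It is shown because Traf1 gave the largest difference in culture. Capitals mark the one match to GGAAGT, a core that PU.1 and SpiB share with other Ets factors, which lies on the opposite strand at -205 to -200 from the start:
Traf1: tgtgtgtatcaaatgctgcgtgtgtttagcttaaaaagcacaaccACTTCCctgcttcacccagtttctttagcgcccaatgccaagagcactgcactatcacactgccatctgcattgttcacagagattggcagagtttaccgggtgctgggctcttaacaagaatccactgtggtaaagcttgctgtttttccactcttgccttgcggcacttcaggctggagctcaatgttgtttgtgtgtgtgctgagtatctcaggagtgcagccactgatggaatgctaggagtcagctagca
The match is a description and not a site known to be bound.

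In naive cells Traf1 was at 21.5 and 32.2 CPM (control), 23.7 and 26.7 CPM (PU.1 cKO), 24.8 and 25.8 CPM (SpiB KO) and 33.88 and 38.14 CPM (PU.1 SpiB DKO). The PU.1 SpiB DKO libraries lay above the other 6, by 0.42 on the log2 scale against control (edgeR adjusted p = 0.145), which is under the fold threshold. After CD40L + IL-4 all 8 libraries lay between 65.4 and 94.7 CPM, and SpiB KO and PU.1 SpiB DKO overlapped control, while PU.1 cKO (69.9 to 74.3 CPM) lay just below control (74.9 to 94.7 CPM). No genotype was DE against control there. After LPS + IL-4 Traf1 was at 260.0 and 298.6 CPM (control), 235.6 and 230.9 CPM (PU.1 cKO), 231.3 and 218.5 CPM (SpiB KO) and 135.6 and 144.2 CPM (PU.1 SpiB DKO). In this culture the Spi1 level of the libraries labelled PU.1 SpiB DKO overlapped control, although the study reports efficient deletion of the floxed exon. For Traf1 these libraries were lowest and did not overlap any other genotype. Against control the log2 fold change was -0.998 (SE 0.088, edgeR adjusted p = 5.05e-05), a level 2.00-fold lower. Against PU.1 cKO it was -0.74 (edgeR adjusted p = 0.00124) and against SpiB KO -0.69 (edgeR adjusted p = 0.00083). Traf1 was the 1 member DE in each of these 2 comparisons, in which 8.11% and 8.09% of all genes were. The single losses gave -0.26 in PU.1 cKO (edgeR adjusted p = 0.0954) and -0.31 in SpiB KO (edgeR adjusted p = 0.124), both under the fold threshold. Each call of Traf1 in PU.1 SpiB DKO after LPS + IL-4 held under all 14 alternatives, with the difference from control between -1.10 and -0.89.

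Traf2 encodes the adaptor that recruits the cIAPs to CD40, and Traf3 the adaptor that brings NIK to them. Traf2 (Entrez ID 22030, chr2:25517982-25546940) was DE in 0 of the 9 comparisons with control by edgeR, with log2 fold changes from -0.31 to -0.03. Its largest difference past the adjusted p was after LPS + IL-4, where the PU.1 SpiB DKO libraries (62.6 and 63.4 CPM) lay below the control libraries (74.1 and 74.6 CPM), with a log2 fold change of -0.24 (edgeR adjusted p = 0.0434). Traf3 (Entrez ID 22031) lies at chr12:111166321-111267155. Its promoter window at chr12:111166120-111166419, plus strand, is shown because it held all 3 motifs searched within 27 bases. Capitals mark a κB match at -10 to -1 from the start, and GAGGAA at 9 to 14, which overlaps GGAAGT at 11 to 16:
Traf3: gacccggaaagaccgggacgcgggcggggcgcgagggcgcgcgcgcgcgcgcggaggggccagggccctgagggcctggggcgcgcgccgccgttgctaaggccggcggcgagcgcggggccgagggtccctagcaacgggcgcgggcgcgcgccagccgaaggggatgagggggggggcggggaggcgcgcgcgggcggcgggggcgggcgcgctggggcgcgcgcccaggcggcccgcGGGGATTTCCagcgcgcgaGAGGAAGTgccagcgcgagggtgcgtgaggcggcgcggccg
These letters say nothing of binding.

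In naive cells Traf3 was at 73.3 and 123.1 CPM (control), 68.4 and 72.6 CPM (PU.1 cKO), 62.4 and 71.5 CPM (SpiB KO) and 52.8 and 63.1 CPM (PU.1 SpiB DKO). The 2 control libraries stood apart from each other, and the lower of them lay just above the highest mutant library. PU.1 SpiB DKO was DE at -0.76 (SE 0.21, edgeR adjusted p = 0.0337), but without naive control replicate 2 the difference was -0.34 and without naive PU.1 SpiB DKO replicate 1 it was -0.64 (edgeR adjusted p = 0.197), neither of them DE. After CD40L + IL-4 Traf3 was at 113.5 and 100.6 CPM (control), 75.9 and 71.9 CPM (PU.1 cKO), 100.6 and 82.8 CPM (SpiB KO) and 69.8 and 59.0 CPM (PU.1 SpiB DKO). PU.1 cKO lay below control, as did PU.1 SpiB DKO, both with no overlap. PU.1 SpiB DKO was DE at -0.73 (SE 0.16, edgeR adjusted p = 0.0142) under all 14 alternatives, and PU.1 cKO passed the p alone at -0.54 (edgeR adjusted p = 0.0694). After LPS + IL-4 the 8 libraries lay between 84.4 and 120.2 CPM. Each genotype overlapped control and none was DE against it, while the SpiB KO libraries (107 to 120.2 CPM) lay above all 4 libraries of PU.1 cKO or PU.1 SpiB DKO.

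Traf5 encodes an adaptor that also binds CD40. It is listed by Entrez ID 22033 at chr1:191997203-192092599, where the pseudogene Gstp-ps lies within it, so its counts are uncertain to the extent that reads were shared. In naive cells Traf5 was at 101.6 and 127.8 CPM (control), 126.4 and 131.5 CPM (PU.1 cKO), 91.8 and 97.3 CPM (SpiB KO) and 82.1 and 83.4 CPM (PU.1 SpiB DKO). The PU.1 SpiB DKO libraries were lowest. Against PU.1 cKO they differed by -0.64 (SE 0.12, edgeR adjusted p = 0.00855) under all 14 alternatives, and Traf5 was the 1 member DE in that comparison (7.21% of all genes). Against control the difference of -0.47 (edgeR adjusted p = 0.0264) was under the fold threshold. In naive PU.1 SpiB DKO against SpiB KO, where 1.98% of all genes were DE, edgeR called 0 members, with 5 at an unadjusted p under 0.05, and DESeq2 and voom called 0.

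Traf4 encodes a TRAF better known from epithelial cells than from CD40 signalling, and it was the 1 member called higher than control. It is listed by Entrez ID 22032 at chr11:78158423-78165579. In naive cells it was at 54.3 and 63.7 CPM (control), 80.7 and 97.5 CPM (PU.1 cKO), 59.3 and 58.8 CPM (SpiB KO) and 67.5 and 67.0 CPM (PU.1 SpiB DKO). After LPS + IL-4 it was at 59.1 and 73.1 CPM (control), 98.7 and 101.3 CPM (PU.1 cKO), 75.8 and 81.0 CPM (SpiB KO) and 86.1 and 86.7 CPM (PU.1 SpiB DKO). In both stages PU.1 cKO was highest, without overlap with the other genotypes, at 0.59 above control on the log2 scale (edgeR adjusted p = 0.0273 in naive cells and 0.00499 after LPS + IL-4). These values lie just past the fold threshold. The call was lost under 3 of 14 alternatives in naive cells, among them without control replicate 1 (0.48) and without PU.1 cKO replicate 2 (0.43). It was lost under 6 of 14 after LPS + IL-4, among them without control replicate 1 (0.45) and without PU.1 cKO replicate 2 (0.57), and in both stages the difference stayed above 0 (from 0.43 to 0.76). After CD40L + IL-4 PU.1 SpiB DKO (85.2 and 106.9 CPM) was above control (64.1 and 64.4 CPM) by 0.58 (edgeR adjusted p = 0.0516), just inside the threshold and not DE. Among the alternatives that called it were voom (0.61) and edgeR with no filter on low counts (0.59), without Rn45s (0.59) or with all 24 libraries (0.59).

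Tank encodes a TRAF binding protein that restrains the signal. It is listed by Entrez ID 21353 at chr2:61578557-61654171, 29.5 Mb from Spi1. After CD40L + IL-4 it was at 64.6 and 60.4 CPM (control), 40.4 and 42.5 CPM (PU.1 cKO), 69.2 and 64.5 CPM (SpiB KO) and 48.4 and 56.9 CPM (PU.1 SpiB DKO). PU.1 cKO was lowest without overlap and DE at -0.59 (edgeR adjusted p = 0.0335), a call lost under 5 of 14 alternatives. Among these were the fits without CD40L + IL-4 control replicate 1 (-0.53), PU.1 cKO replicate 1 (-0.53) or PU.1 cKO replicate 2 (-0.62, edgeR adjusted p = 0.186). In naive cells the PU.1 cKO libraries (60.7 and 55.2 CPM) and PU.1 SpiB DKO libraries (65.2 and 60.4 CPM) lay below those of control (90.0 and 80.4 CPM) and SpiB KO (82.8 and 79.9 CPM). These differences from control, -0.56 (edgeR adjusted p = 0.0219) and -0.44 (edgeR adjusted p = 0.0258), passed the p and not the fold.

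Birc2 and Birc3 encode the ubiquitin ligases cIAP1 and cIAP2. They are neighbours on chromosome 9, Birc2 (Entrez ID 11797) at chr9:7818226-7837131 and Birc3 (Entrez ID 11796) at chr9:7847468-7873205, 10.3 kb apart. The counts are of uniquely mapped reads, and how far the related genes share sequence was not tested. Birc2 was DE in 1 comparison with control. After CD40L + IL-4 it was at 69.9 and 87.3 CPM (control), 54.2 and 46.6 CPM (PU.1 cKO), 71.4 and 80.2 CPM (SpiB KO) and 53.0 and 54.9 CPM (PU.1 SpiB DKO). The 4 libraries with the Spi1 deletion by label (PU.1 cKO or PU.1 SpiB DKO) lay below the other 4. PU.1 cKO differed from control by -0.64 (SE 0.16, edgeR adjusted p = 0.0341), and without CD40L + IL-4 control replicate 2 by -0.48 and without PU.1 cKO replicate 2 by -0.52, neither of them DE. PU.1 SpiB DKO at -0.54 (edgeR adjusted p = 0.0543) was under the fold threshold. After LPS + IL-4 the 8 libraries lay between 44.9 and 56.2 CPM and overlapped.

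Birc3 was lower in PU.1 cKO and in PU.1 SpiB DKO at every stage, with log2 fold changes from -0.61 to -0.31 against control and edgeR adjusted p from 0.000944 to 0.146. In naive cells it was at 168.9 and 186.9 CPM (control), 116.8 and 115.9 CPM (PU.1 cKO), 146.2 and 173.9 CPM (SpiB KO) and 109.1 and 132.8 CPM (PU.1 SpiB DKO). After LPS + IL-4 it was at 191.9 and 180.3 CPM (control), 153.0 and 147.3 CPM (PU.1 cKO), 181.1 and 164.4 CPM (SpiB KO) and 129.6 and 117.7 CPM (PU.1 SpiB DKO). In both stages the 4 libraries of PU.1 cKO or PU.1 SpiB DKO lay below the other 4. It was DE in naive PU.1 cKO (-0.61, edgeR adjusted p = 0.0244) and in PU.1 SpiB DKO after LPS + IL-4 (-0.59, edgeR adjusted p = 0.000944). Both values sit at the fold threshold and each call was lost under 3 of 14 alternatives, with the difference at -0.53 or below. In naive cells these included the fits without PU.1 cKO replicate 1 (-0.62, edgeR adjusted p = 0.152) and without control replicate 2 (-0.54), and after LPS + IL-4 those without control replicate 1 (-0.55) and without PU.1 SpiB DKO replicate 2 (-0.54).

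Map3k14 encodes NIK, the kinase that starts the noncanonical pathway. It is listed by Entrez ID 53859 at chr11:103219764-103267401. In naive cells it was at 43.3 and 69.7 CPM (control), 24.7 and 22.4 CPM (PU.1 cKO), 22.5 and 32.8 CPM (SpiB KO) and 18.6 and 28.7 CPM (PU.1 SpiB DKO). All 6 mutant libraries lay below both control libraries, although these differed from each other. In PU.1 cKO the log2 fold change was -1.26 (SE 0.28, edgeR adjusted p = 0.0273). In SpiB KO it was -1.03 (SE 0.27, edgeR adjusted p = 0.0628), and in PU.1 SpiB DKO -1.25 (SE 0.28, edgeR adjusted p = 0.0123). Without naive control replicate 2 these were -0.88, -0.65 and -0.87 in the same order, with edgeR adjusted p of 0.118, 0.328 and 0.0667, so that the call of SpiB KO was lost. It was also lost without naive SpiB KO replicate 1 (-0.79, edgeR adjusted p = 0.4), and the call of PU.1 cKO was lost without naive PU.1 cKO replicate 2 (-1.21, edgeR adjusted p = 0.17). After CD40L + IL-4 Map3k14 lay between 43.4 and 71.0 CPM and after LPS + IL-4 between 35.4 and 62.3 CPM over 8 libraries each, with control libraries at 71.0 and 56.7 CPM and at 56.9 and 35.4 CPM. The PU.1 SpiB DKO libraries overlapped control in both cultures, and no genotype was DE.

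Tnfaip3 encodes A20, the ubiquitin editing enzyme that limits NF-κB. It is listed by Entrez ID 21929 at chr10:19000910-19015410. Its promoter window at chr10:19015361-19015660, minus strand, is shown because Tnfaip3 was 1 of 2 members that rose in both cultures. Capitals mark its 2 κB matches, at -125 to -116 and -12 to -3 from the start, and it held neither Ets core:
Tnfaip3: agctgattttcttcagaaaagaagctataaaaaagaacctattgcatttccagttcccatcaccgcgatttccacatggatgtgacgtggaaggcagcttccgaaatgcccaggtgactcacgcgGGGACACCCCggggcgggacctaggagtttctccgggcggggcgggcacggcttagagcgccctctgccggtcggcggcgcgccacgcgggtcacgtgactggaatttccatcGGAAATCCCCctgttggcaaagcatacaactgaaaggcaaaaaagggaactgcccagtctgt
In naive cells Tnfaip3 was at 57.1 and 57.8 CPM (control), 34.7 and 33.9 CPM (PU.1 cKO), 45.6 and 46.6 CPM (SpiB KO) and 31.6 and 39.6 CPM (PU.1 SpiB DKO). All mutant libraries were below control, and the 4 of PU.1 cKO or PU.1 SpiB DKO were below those of SpiB KO. It was DE in PU.1 cKO at -0.74 (SE 0.14, edgeR adjusted p = 0.0119) under all 14 alternatives, and in PU.1 SpiB DKO at -0.69 (edgeR adjusted p = 0.00711), lost without naive PU.1 SpiB DKO replicate 1 (-0.53). After CD40L + IL-4 it was at 130.5 and 127.9 CPM (control), 141.2 and 112.9 CPM (PU.1 cKO), 135.2 and 131.0 CPM (SpiB KO) and 95.4 and 81.0 CPM (PU.1 SpiB DKO). There PU.1 SpiB DKO alone was low, without overlap. The difference of PU.1 SpiB DKO from SpiB KO of -0.59 (edgeR adjusted p = 0.0432) made Tnfaip3 the 1 member DE in that comparison (11.4% of all genes). This call was lost with voom (-0.57), without SpiB KO replicate 1 (-0.57) or without PU.1 SpiB DKO replicate 2 (-0.49). The difference from control was -0.55 (edgeR adjusted p = 0.0496). Against PU.1 cKO (3.01% of all genes DE) edgeR called 0 members, with 3 at an unadjusted p under 0.05, and DESeq2 and voom called 0. After LPS + IL-4 it was at 225.7 and 188.7 CPM (control), 159.6 and 131.0 CPM (PU.1 cKO) and 179.1 and 143.4 CPM (PU.1 SpiB DKO). These differences from control, -0.51 (edgeR adjusted p = 0.0533) and -0.36 (edgeR adjusted p = 0.0857), passed the p and not the fold.

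A list of 12 immediate early and heat shock genes had a lower sum in every naive mutant library than in control. Its summed level was 1775 and 1214 CPM in the naive control libraries, 723.0 and 722.7 CPM (PU.1 cKO), 1206 and 820 CPM (SpiB KO) and 759.7 and 600.7 CPM (PU.1 SpiB DKO). Of the 12 genes, PU.1 cKO had 8 DE and lower (8.4% of all genes DE), SpiB KO 2 (6.35%) and PU.1 SpiB DKO 10 (14.1%), and 0 were higher. Hspa1b, a heat shock gene (-4.86), and Dusp1, a phosphatase of MAP kinases (-2.50), differed most in PU.1 SpiB DKO. Within control, SpiB KO and PU.1 SpiB DKO, the library with the higher sum had the lower Map3k14, Traf3, Birc3 and Tnfaip3. In SpiB KO Map3k14 was at 22.5 CPM in the library with the higher sum and at 32.8 CPM in the other. The PU.1 cKO sums were nearly equal. The part of this list in the naive differences of the members was not tested.

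**Figure D4:**
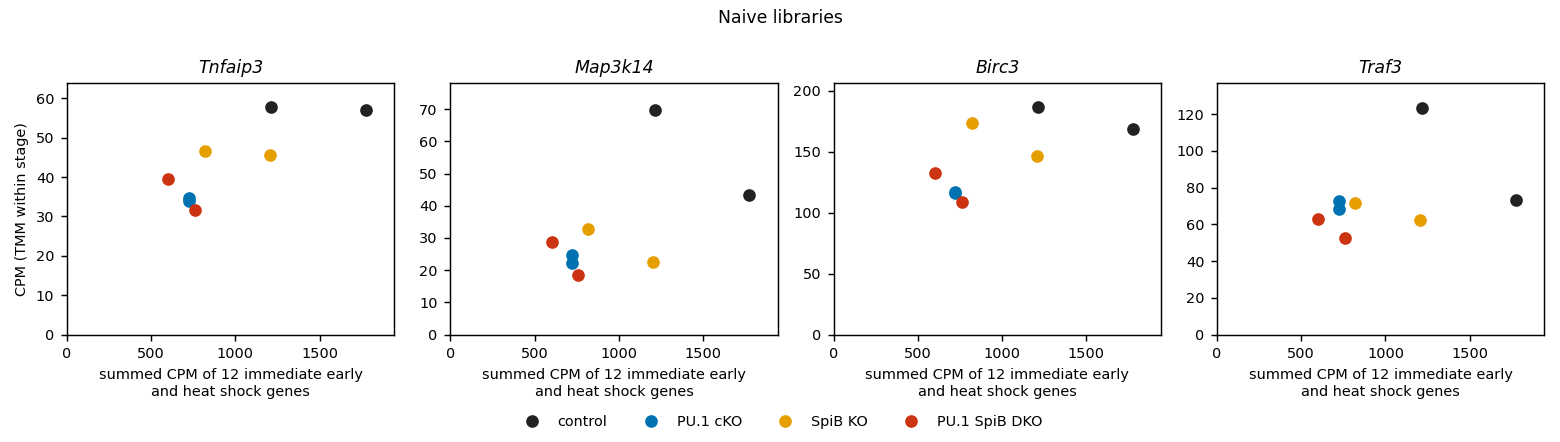
CPM of 4 members (vertical) against the summed CPM of 12 immediate early and heat shock genes (horizontal) in the 8 naive libraries, coloured by genotype. Tnfaip3, Map3k14, Traf3 and the sum are highest in the control libraries. For Birc3 the SpiB KO replicate 2 library (173.9 CPM) lies above control replicate 1 (168.9 CPM). The control library with the highest sum (1775 CPM) has the highest level of none of the 4 members.

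Whether the single-mutant effects added up to that of PU.1 SpiB DKO was tested as an interaction on the log2 scale. SpiB KO lacked the Cre transgene and control is not labelled with floxed Spi1, so neither cancels in this term. Spi1 was also higher in PU.1 SpiB DKO than in PU.1 cKO in naive cells (102.6 to 110.1 against 53.2 to 59.5 CPM) and after LPS + IL-4. The term therefore does not isolate the losses of PU.1 and SpiB. By edgeR 0 members passed an adjusted p under 0.15 in naive cells (0.936% of all genes did), after CD40L + IL-4 (1.17%) and after LPS + IL-4 (1.48%). At an unadjusted p under 0.05 there were 2 in naive cells (Traf1 and Map3k14), 1 after CD40L + IL-4 (Tnfaip3) and 2 after LPS + IL-4 (Traf1 and Traf4). DESeq2 called 1, 0 and 1, and voom 0 in each. The interaction of Traf1 after LPS + IL-4 was -0.42 (SE 0.12, edgeR adjusted p = 0.24). Libraries of this culture that share a replicate number deviated together, and a fit that took this number as a block passed 3 members there: Traf1 at -0.43 (edgeR adjusted p = 0.0569), Traf4 at -0.46 (edgeR adjusted p = 0.0533) and Tnfaip3 at 0.27 (edgeR adjusted p = 0.115).

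The effect of a genotype against control was also compared between stages, in a fit of all 24 libraries. For PU.1 SpiB DKO 4 members differed between LPS + IL-4 and naive cells (29.6% of all genes), 2 between LPS + IL-4 and CD40L + IL-4 (28.6%) and 1 between CD40L + IL-4 and naive cells (16.8%). The effect on Traf1 was lower after LPS + IL-4 than in naive cells (-1.49 on the log2 scale, SE 0.22, edgeR adjusted p = 0.000136) and lower than after CD40L + IL-4 (-1.08, edgeR adjusted p = 0.00376). Both held under all 16 alternatives. The effect on Map3k14 was less negative after CD40L + IL-4 (1.27, edgeR adjusted p = 0.0407) and LPS + IL-4 (1.41, edgeR adjusted p = 0.0146) than in naive cells, the first of them not called without naive PU.1 SpiB DKO replicate 1 (0.99) or naive control replicate 2 (0.92). For PU.1 cKO 1 member differed between CD40L + IL-4 and naive cells (Tnfaip3, 8.98% of all genes), 1 between LPS + IL-4 and naive cells (Map3k14, 6.34%) and 0 between the cultures (3.09%). For that 0, edgeR gave 3 at an unadjusted p under 0.05, DESeq2 called 2 and voom 1. A fit that blocked on the replicate number gave counts of 4, 2 and 3 for PU.1 cKO in this order of stages, 1, 3 and 0 for SpiB KO and 4, 4 and 3 for PU.1 SpiB DKO. For SpiB KO the counts were 0 (2.15%), 1 (Map3k14, 5.65%) and 0 (0%) in the same order. At an unadjusted p under 0.05 edgeR gave 2 and 0 for these 0 counts, and DESeq2 and voom called 0.

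**Figure D5:**
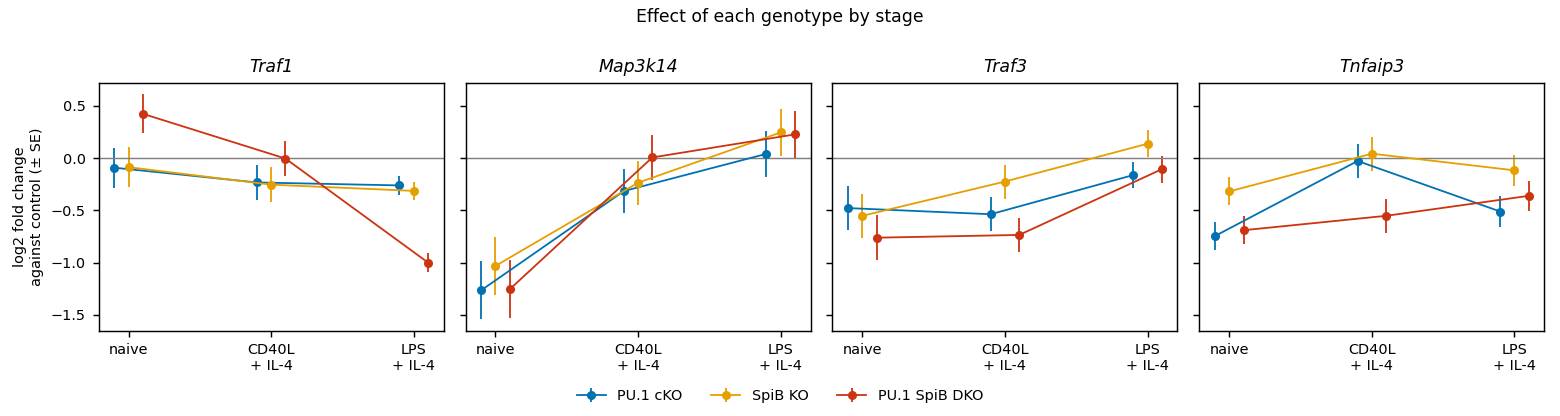
Log2 fold change against control with its standard error (vertical) of Traf1, Map3k14, Traf3 and Tnfaip3 by stage (horizontal) and genotype (colour). The PU.1 SpiB DKO effect on Traf1 runs from 0.42 in naive cells to -0.998 after LPS + IL-4, while that on Map3k14 runs from -1.25 to 0.23.

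Around the members, the receptor itself was lower. Cd40, which encodes CD40, was at 147.0 and 148.2 CPM in naive control and at 50.5 and 52.6 CPM (PU.1 SpiB DKO). In that genotype it differed from control by a log2 fold change of -1.52 (edgeR adjusted p = 0.000131) in naive cells, -1.96 (edgeR adjusted p = 0.000107) after CD40L + IL-4 and -2.14 (edgeR adjusted p = 3.71e-06) after LPS + IL-4. The PU.1 cKO libraries also lay below control at each stage. They were at 56.1 and 75.8 CPM in naive cells, 29.6 and 31.6 CPM after CD40L + IL-4 and 79.0 and 93.7 CPM after LPS + IL-4. Those of SpiB KO lay below control at each stage too, and above PU.1 cKO. Of the receptors of the family tested (11, 13 and 9 of 14 in the 3 stages), 1, 2 and 1 were higher and 2, 3 and 3 lower in PU.1 SpiB DKO. Of all genes tested, 14.1%, 13.7% and 13.6% were DE in that genotype against control in the same order. Tnfrsf1a, a TNF receptor, rose in naive cells (2.68), Tnfrsf8, which encodes CD30, rose after CD40L + IL-4 (3.58), and Tnfrsf13c, the BAFF receptor gene, fell after LPS + IL-4 (-0.99). Of 13 IKK and NF-κB genes, 7 were lower in naive PU.1 cKO (8.4% of all genes DE) and 5 in naive PU.1 SpiB DKO (14.1%), with 0 higher. They were led in PU.1 SpiB DKO by Ikbkb, a catalytic subunit of IKK (-0.99), and Rel, which encodes c-Rel (-0.97). In PU.1 SpiB DKO 3 were lower after CD40L + IL-4, among them Rel (-1.82) and Ikbkb (-0.75), and 4 after LPS + IL-4, among them Nfkb2, the noncanonical subunit gene (-0.77), and Nfkbiz (-0.77). Of 29 other adaptors and ubiquitin regulators tested at each stage, at most 1 was higher and 2 lower in PU.1 SpiB DKO, a smaller share than among all genes. These were Rnf31 (-0.79), which encodes a subunit of the linear ubiquitin ligase, Ikbke (0.70) and Tax1bp1 in naive cells, Traf3ip2 (-0.82) and Otud7b (-0.62) after CD40L + IL-4 and Tab2 (0.59) after LPS + IL-4, Tax1bp1 being named after its value was seen. Plasma cell genes moved with genotype in the cultures, from a summed 661 to 712 CPM in control to 1629 to 1634 CPM in PU.1 SpiB DKO after LPS + IL-4, and their part in the differences of the members was not tested.

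Over the 12 group means, the genes most like each member in log2 CPM among 8751 were, as a description, Crcp (Pearson's r = 0.995) and Ampd2 (0.993) for Traf1, Msl1 (0.994) and Coro1a (0.991) for Traf5, and Kdm2b (0.989) and Fnbp1 (0.986) for Tnfaip3. For Traf4 the likest, Sh2d2a, reached 0.821. The 12 groups share stages, and the likeness within a stage was not computed. In the RefSeq promoter windows, on either strand, GAGGAA was found in 28.3% of all 32851 windows and in those of 3 members (Birc3, Traf2 and Traf3), GGAAGT in 23.8% and 3 members (Tank, Traf1 and Traf3), and κB in 4.5% and 3 members (Tank, Tnfaip3 and Traf3). No window of Map3k14, Birc2, Traf4 or Traf5 held any of the 3.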

How the data were processed

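RNA-seq was read from 24 libraries. The deposited tables hold raw counts per gene, which the authors made by aligning reads to GRCm38/mm10 with Subread, keeping uniquely mapped reads and counting those over RefSeq exons with featureCounts (versions are not given in the sources used here). The log2 RPKM values that the authors deposited for each library carry a further normalization between libraries whose kind is not given in the sources used here, and they were made for the LPS + IL-4 libraries (12634 genes) apart from the others (13569 genes). The 517 entries with no symbol held 0.162% of counts. They stayed in the fits and were left out only of the search for the genes most like each member.

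Genes reaching 0.5 CPM in 2 libraries or more were fitted with edgeR 4.0.16 (R 4.3.3; TMM, quasi-likelihood test, two-sided, Benjamini-Hochberg adjustment over all genes tested). Genotypes were compared within the 8 libraries of a stage (12445 to 12721 genes tested), and stages and the effect of genotype by stage over all 24. The code was tested on simulated data. The named genes were the 10 members, Spi1, Spib, Cd40, the 2 genes of each list with the largest fold among those DE in PU.1 SpiB DKO, and the 2 genes most like each member. The members and lists were chosen with earlier results of these data known. Alternatives were voom with quantile normalization (limma 3.58.1), DESeq2 1.42.0, RLE size factors, other filters, thresholds and sets of libraries, a replicate block, and each library left out. The labels do not say what a shared replicate number means. Deviations of libraries that share a number correlated at 0.371 to 0.508 over genes after LPS + IL-4, and at 0.0737 to 0.227 in naive cells and -0.0701 to 0.246 after CD40L + IL-4. The main fits had no block at any stage, and the alternative with a replicate block had one at every stage. Promoter windows are from RefSeq on GRCm38.p6. Depth was 9.6 to 73.7 M counts per library. The p-values rest on a spread pooled over all groups of a fit and moderated over genes, with 2 libraries per group.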

Additional observations from a re-analysis of the deposited data

Results flagged for a closer look

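In 10 cases, over 8 pairs of member and genotype, the effect of a genotype against control differed between 2 stages, in the edgeR fit of all 24 libraries at an adjusted p under 0.15. Of these, 3 held under all 16 alternatives.

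In PU.1 SpiB DKO the effect on Traf1 was lower after LPS + IL-4 than in naive cells (-1.49, edgeR adjusted p = 0.000136) and than after CD40L + IL-4 (-1.08, edgeR adjusted p = 0.00376). Within the stages it was 0.42, -0.0035 and -0.998 in naive cells, after CD40L + IL-4 and after LPS + IL-4.

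The effect on Map3k14 was less negative after LPS + IL-4 than in naive cells in each genotype, by 1.41 for PU.1 SpiB DKO (edgeR adjusted p = 0.0146). For PU.1 cKO the difference was 1.28 (edgeR adjusted p = 0.0845), and for SpiB KO 1.27 (edgeR adjusted p = 0.0975). After CD40L + IL-4 it was less negative than in naive cells in PU.1 SpiB DKO (1.27, edgeR adjusted p = 0.0407). The 3 genotypes share the control libraries. Without naive control replicate 2 PU.1 cKO gave 0.93, SpiB KO gave 0.92 and PU.1 SpiB DKO after CD40L + IL-4 gave 0.92, none of them called. Leaving out LPS + IL-4 control replicate 2 also ended the calls of PU.1 cKO (0.92) and SpiB KO (0.94), as did leaving out any 1 LPS + IL-4 library of the genotype itself, either naive PU.1 cKO library, or naive SpiB KO replicate 1.

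In PU.1 cKO the effect on Tnfaip3 was less negative after CD40L + IL-4 than in naive cells (0.73, edgeR adjusted p = 0.0604), and it was not called without CD40L + IL-4 PU.1 cKO replicate 1 (0.51) or naive PU.1 cKO replicate 2 (0.72).

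In PU.1 SpiB DKO the effect after LPS + IL-4 differed from that in naive cells for Traf3 (0.58, edgeR adjusted p = 0.121) and Traf5 (0.52, edgeR adjusted p = 0.08), and from that after CD40L + IL-4 for Birc2 (0.44, edgeR adjusted p = 0.12). The call of Traf3 was lost without naive control replicate 2 (0.197) and under 4 other alternatives. That of Traf5 was lost without naive control replicate 2 (0.37) and under 5 others, and that of Birc2 without CD40L + IL-4 control replicate 2 (0.27) and under 6 others.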

How the results depend on the processing

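None of the 38 member results called changed sign under an alternative or with a library left out, while 228 changes of sign among 4410 recomputed values were of results not called. Counts of members called that moved by over 1.5 times were as follows, and smaller moves, such as 4 to 3 for naive PU.1 cKO and 3 to 4, 4 to 5 and 3 to 4 for the stages in control with voom, are not listed. At an adjusted p under 0.05, naive SpiB KO against control gave 0 (from 1), and the differences between stages gave 0 for PU.1 cKO in both cultures against naive cells (from 1 and 1), 0 for SpiB KO between LPS + IL-4 and naive cells (from 1), and for PU.1 SpiB DKO 2 between LPS + IL-4 and naive cells (from 4) and 1 between the cultures (from 2). With voom, CD40L + IL-4 gave 2 for PU.1 SpiB DKO against control (from 1) and 0 against SpiB KO (from 1), LPS + IL-4 PU.1 cKO gave 0 (from 1), whereas PU.1 SpiB DKO gave 1 (from 2), and the PU.1 cKO effect gave 2 between CD40L + IL-4 and naive cells and 1 between the cultures (from 1 and 0). With DESeq2, LPS + IL-4 PU.1 cKO gave 0, the interaction 1 in naive cells and 1 after LPS + IL-4 (from 0), the PU.1 cKO effect 2 in each pair of stages (from 1, 1 and 0) and the SpiB KO effect 2 between LPS + IL-4 and naive cells. RLE size factors gave 0 for LPS + IL-4 PU.1 cKO. With no filter, CD40L + IL-4 PU.1 cKO gave 1 (from 2), PU.1 SpiB DKO gave 2, the interaction 1 in naive cells and 2 after LPS + IL-4, and the effects between CD40L + IL-4 and naive cells 2 (PU.1 cKO) and 1 (SpiB KO), with 2 for SpiB KO between LPS + IL-4 and naive cells. Fitting all 24 libraries gave 1 for PU.1 cKO after CD40L + IL-4 and 0 after LPS + IL-4, and 2 for PU.1 SpiB DKO after CD40L + IL-4, removing Rn45s gave 2 for CD40L + IL-4 PU.1 SpiB DKO, and fitting the 16 libraries of both stages gave 2 for the SpiB KO effect between LPS + IL-4 and naive cells. With the replicate number as a blocking term, the interaction gave 3 in naive cells and 3 after LPS + IL-4, and between CD40L + IL-4 and naive cells the effects gave 4 for PU.1 cKO, 1 for SpiB KO and 4 for PU.1 SpiB DKO, between LPS + IL-4 and naive cells 2 (PU.1 cKO) and 3 (SpiB KO), and between the cultures 3 for PU.1 cKO. The block ended 1 call, that of Birc2 between LPS + IL-4 and naive control cells (-0.53), and no other. With 1 library left out, the remaining one is assumed to vary like the other groups. In naive cells the count ran from 2 to 4 for PU.1 cKO (2 without its replicate 2), 0 to 2 for SpiB KO (2 without control replicate 1, 0 without control replicate 2 or its own replicate 1), 1 to 5 for PU.1 SpiB DKO (5 without control replicate 1, 1 without its replicate 1) and 0 to 2 for the interaction (2 without control replicate 1). After CD40L + IL-4 it ran from 0 to 2 for PU.1 cKO (0 without its replicate 2, 1 without its replicate 1 or control replicate 1), 1 to 3 for PU.1 SpiB DKO (3 without its replicate 1, 2 without control replicate 1) and 0 to 4 for PU.1 SpiB DKO against SpiB KO (4 without SpiB KO replicate 2, 3 without PU.1 SpiB DKO replicate 1, 0 without either of the other libraries). After LPS + IL-4 it ran from 0 to 2 for PU.1 cKO (0 without control replicate 1 or its replicate 2, 2 without the other library of each), 0 to 1 for SpiB KO (1 without control replicate 1), 1 to 2 for PU.1 SpiB DKO (1 without its replicate 2) and 0 to 2 for the interaction (2 without control replicate 2). The differences between stages ran from 0 to 2, 0 to 1 and 0 to 1 for PU.1 cKO, 0 to 0, 0 to 3 and 0 to 0 for SpiB KO and 0 to 3, 2 to 4 and 1 to 3 for PU.1 SpiB DKO, in the order CD40L + IL-4 against naive, LPS + IL-4 against naive and LPS + IL-4 against CD40L + IL-4. The causes of these moves were not tested, except that the stricter threshold and the smaller sets of libraries are such by construction. With 2 libraries a group, a member that missed the threshold is not shown to be unchanged.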
